A study of Homo sapiens with 4 samples.

Results

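Gained regions are stretches of the genome where open chromatin was called as a peak in both libraries of CHD7 knockdown cells and in neither control library. They were chosen by the peak calls themselves. Peaks on chromosomes 1 to 22 and X that shared at least 1 bp across the 4 lists were merged into 20450 regions. Of these, 479 met the rule, which is 2.34% of all regions and 11.0% of the 4367 regions with a peak in both knockdown lists. Since presence and absence of peaks fixed the members, the values at their peaks describe them and were not tested, and the shares of 2.34% and 11.0% are the rule's own counts. All 479 are accounted for below, with no filter on low values.

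The assay was ATAC-seq, in which the transposase Tn5 cuts open DNA and adds sequencing adaptors, so that accessible sites collect more reads than the DNA around them. It was run on nuclei of RKO cells, a human colon cancer line. The comparison addresses how chromatin accessibility changed when CHD7 was depleted. CHD7 is a chromodomain helicase that uses ATP to slide nucleosomes along DNA, and is known to bind at enhancers and promoters. A site can open when a nucleosome is moved or removed and close when one is placed over it, so loss of a remodeller may in principle change sites in either direction.

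Both groups were RKO cells stably infected with lentivirus. The control group carried a control construct. The other group carried the hairpin named shCHD7-2, with treatment labelled CHD7 shRNA2 and genotype labelled CHD7 knockdown. There were 2 libraries per group, 1 cell line and 1 hairpin, and the sources used here do not say whether the replicates were separate cultures, so the spread between them may be technical. The level of CHD7 and the identity of the line cannot be checked from peak lists.

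The depth of the lists differed between groups. The library background, the read pileup that the peak caller took as the genome-wide level, was 0.916 and 0.843 reads in control replicates 1 and 2, and 1.40 and 1.62 reads in shCHD7-2 replicates 1 and 2. On average it was 1.72 times as high in shCHD7-2. The lists held 13257 and 12092 control peaks and 7199 and 8715 shCHD7-2 peaks. The lowest summit pileup, the number of reads stacked at the highest point of a peak, was 6 in each control list and 8 in each shCHD7-2 list. A site missing from the control lists was therefore not detected at that depth, which does not show that it was closed. Depth and knockdown cannot be told apart as the source of a peak being called in both shCHD7-2 lists alone. Signal over background differed too. At regions with peaks in every list, the median summit pileup over library background was 25.1 and 24.9 in control replicates 1 and 2. It was 11.4 and 11.1 in shCHD7-2 replicates 1 and 2. Over local background, with 1 added to each, the medians were 7.45 and 7.22 in control and 5.77 and 5.72 in shCHD7-2. The source of this difference was not tested. When pileups were rescaled to the lowest library background, 345 regions were gained, 343 of them among the 479. They were 9.28% of the 3719 regions then in both shCHD7-2 lists.

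The gained peaks were of middling strength within their own lists. In shCHD7-2 replicate 1 the summit pileup of the 479 regions ranged from 8 to 40 reads with a median of 14, and in replicate 2 from 9 to 41 reads with a median of 15. The middle 50% lay between 12 and 17 reads in replicate 1 and between 12 and 18.5 reads in replicate 2. Most gained regions thus stood a handful of reads above the lowest pileup that was called at all.

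**Figure D1:**
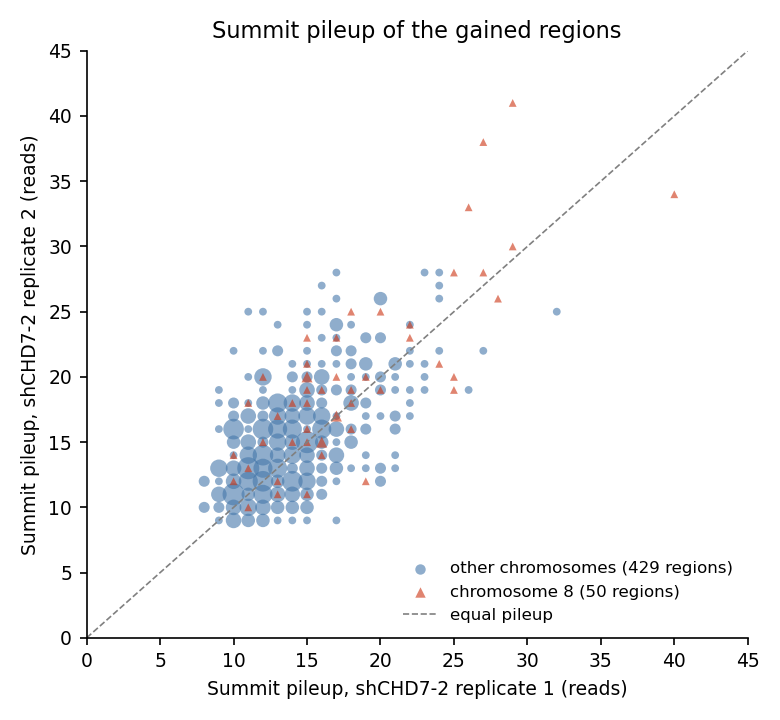
Summit pileup in reads for each of the 479 gained regions, with shCHD7-2 replicate 1 on the horizontal axis and replicate 2 on the vertical axis. Larger circles stand for more regions at the same pair of values, triangles for the 50 regions on chromosome 8, and the dashed line for equal pileup. The medians are 14 and 15 reads, and pileups above 30 reads are rare in either library.

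The replicates ranked the gained regions only loosely alike. Pileup was higher in replicate 2 at 272 regions, higher in replicate 1 at 152 and equal at 55. Divided by each library's own background, it was higher in replicate 1 at 284 regions. Across the 479 regions, Pearson's r between the replicates' pileups was 0.63 and Spearman's rho was 0.54. They were 0.82 and 0.72 across the 3395 regions with peaks in all 4 lists, called retained here. Across the 493 regions with peaks in both shCHD7-2 lists and 1 control list they were 0.65 and 0.59, near those of the gained. These correlations run across regions of the same pair of libraries. The regions are not independent replicates, and the narrow range of pileups among gained regions bears on the comparison.

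The strongest gained regions were those with the highest rank in the weaker of their 2 lists, ranked by the peak caller's −log10 p. At chr1:12870720-12871306 (hg19), the first of these, the pileup was 24 reads in replicate 1 and 28 in replicate 2. Its peaks outranked 92.9% and 96.4% of the peaks in their lists. At chr3:39002533-39003015, the second, the pileups were 19 and 20 reads. The fold enrichment, which is the summit pileup over local background with 1 added to each, was 7.52 and 7.55 there, so the replicates gave nearly the same value. The summits lay 16 bp apart, and the nearest control peak lay 30878 bp away.

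A pair of high-ranking gained regions on chromosome 8 had the tallest summits of the 10. Pileup was 40 and 34 reads at chr8:136240658-136241370. It was 27 and 38 reads at chr8:133618998-133619821, where replicate 2 was the taller. The next, at chr4:154994482-154995048, had 23 and 28 reads and summits 320 bp apart.

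The rest of the 10 had between 17 and 27 reads in either library. At chr3:75334428-75335201 the pileups were 17 and 21 reads over a background at the library level in both lists, with summits 2 bp apart. At chr12:38450416-38451387 they were 20 and 19 reads, at chr7:71098489-71099069 they were 19 and 23, at chr11:56700172-56700704 they were 17 and 22, and at chr5:146783611-146784378 they were 27 and 22. These sites differed widely in their distance to the nearest control peak, from 11861 bp for the region on chromosome 5 to 1199505 bp for that on chromosome 7.

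The lists ended at a q value near 0.05. The gained regions that were weak in both lists, with the lowest −log10 q in the stronger of the 2, were the following 3. At chr11:4560889-4561193 the pileups were 10 and 9 reads and the −log10 q was 2.04 and 1.98. At chr5:49615909-49616253 they were 9 and 9 reads, with −log10 q of 2.38 and 1.98. At chr1:47779172-47779503 they were 11 and 11 reads, with −log10 q of 2.38 and 2.22. All 3 were narrow, between 305 and 345 bp.

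Regions just outside the rule had a weak peak in 1 control list. At chr20:13976725-13977287 control replicate 1 had a peak of 11 reads and −log10 q 1.53, against 18 and 18 reads in shCHD7-2. At chr8:135505098-135505556 control replicate 1 had 9 reads and −log10 q 1.55, against 26 and 32 reads. At chr4:23615814-23616414 control replicate 2 had 6 reads and −log10 q 1.74, against 19 and 19 reads. These pileups are not scaled to the library background, which was on average 1.72 times as high in shCHD7-2. They do not by themselves show a weaker site in control. Each of these regions would have counted as gained had the control peak just missed the threshold. In all, 493 regions had peaks in both shCHD7-2 lists and 1 control list, slightly more than the 479 gained, with 283 of the control peaks in replicate 1 and 210 in replicate 2.

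The number of gained regions depended strongly on the lists. It was 258 when every list was limited to −log10 q of at least 5, and 142 of these were among the 479. As a share of the 2217 regions then in both shCHD7-2 lists this was 11.6%, near the 11.0% of the full lists. The number was 800 (19.6% of such regions) when every list was shortened to the 7199 strongest peaks. Without 1 control list it rose to 760 (17.5%, replicate 1 left out) or 689 (15.8%, replicate 2 left out). Without 1 shCHD7-2 list it rose to 2590 (replicate 1) or 1934 (replicate 2). These were 30.2% and 27.3% of the regions with a peak in the shCHD7-2 list that was kept.

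Gained regions were narrower and less enriched than retained regions in both shCHD7-2 libraries. The median width of a gained peak was 372 bp in replicate 1 and 395 bp in replicate 2, against 511 and 547 bp for the retained. The ratio of gained to retained width averaged 0.725 ± 0.00415 (SD, n = 2 libraries). The median fold enrichment was 5.00 and 4.95 against 5.77 and 5.72, a ratio of 0.866 ± 0.000842 (SD, n = 2 libraries). The SD covers the difference between the replicate libraries and not the spread over regions, which was wide: gained fold enrichment ran from 3.39 to 8.75 in replicate 1 and from 3.15 to 9.09 in replicate 2.

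Regions called in fewer lists than the retained came closer to the gained. The 493 regions with both shCHD7-2 peaks and 1 control peak had median shCHD7-2 widths of 398 and 415 bp and median fold enrichments of 5.33 and 5.05. The 1148 regions with 1 control and 1 shCHD7-2 peak, called mixed pairs here, rest on as many peak calls as the gained. They had widths of 339 and 367.5 bp and enrichments of 4.69 and 4.57 in the shCHD7-2 peak. The 3553 regions called in a single shCHD7-2 list alone were weaker again, at 286 and 297 bp and at 4.34 and 4.19. On width and enrichment the gained regions therefore lay between the mixed pairs and the regions with 1 control peak, in both libraries.

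**Figure D2:**
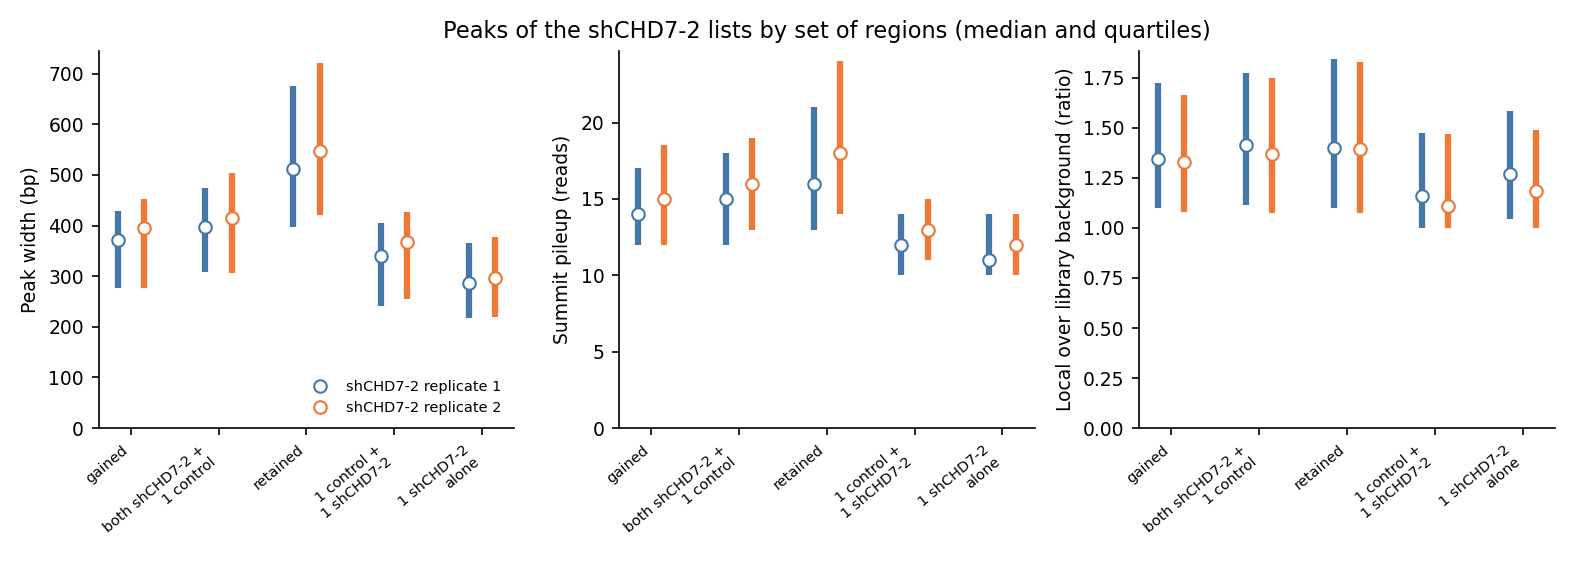
Peak width in bp, summit pileup in reads and the ratio of local to library background in shCHD7-2 replicates 1 and 2, with the median as a point and the middle 50% of peaks as a bar for each set of regions. Gained peaks have median widths of 372 and 395 bp, below the 511 and 547 bp of retained peaks, while their backgrounds of 1.34 and 1.33 lie near the retained 1.40 and 1.39.

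Few gained peaks were at the narrowest width that the lists hold, which is 200 bp. There were 35 such peaks (7.31%) in replicate 1 and 31 (6.47%) in replicate 2. Retained peaks were at this width in 2.44% and 1.74%, and peaks called in a single shCHD7-2 list in 18.3% and 15.8%. At the other end, the widest gained peak was 811 bp in replicate 1 and 972 bp in replicate 2.

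Each gained region held exactly 1 peak per shCHD7-2 list, and the replicates placed the summits close together. The summits were a median of 49 bp apart, ranging from 1 to 488 bp, and 327 regions (68.3%) had summits within 100 bp. The 2 peaks of a gained region share at least 1 bp by rule, so their widths limit how far apart the summits can lie. The median was 62 bp in retained regions, whose peaks were wider, and 47 bp in those with 1 control peak. It was between 54 and 84 bp for the 4 kinds of mixed pair. It was 30 bp in the 258 regions gained when every list was limited to −log10 q of at least 5.

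The edges of the gained peaks matched less well than their summits. The merged region had a median width of 448 bp, from 200 to 972 bp, and a median of 63.6% of its length lay in both peaks. Peak width in replicate 1 tracked that in replicate 2 only weakly, with a Spearman's rho of 0.21 across the 479 regions. It was 0.50 across the retained and 0.25 across the regions with 1 control peak, so the weak match was not particular to the gained.

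The widest gained regions include some where the replicates barely met. The widest, at chr12:38450416-38451387, spanned 972 bp with peaks of 718 and 972 bp and pileups of 20 and 19 reads. At chr11:132181942-132182808 the region was 867 bp wide, but only 17.9% of it lay in both peaks. Its summits, with 15 reads each, were 488 bp apart, the largest summit distance among the 479. The widths of chr4:165472263-165473094 (14 and 11 reads) and chrX:124891916-124892737 (13 and 22 reads) were 832 and 822 bp.

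Local background, the read level of the surroundings that the peak caller took for each peak, was moderately raised at gained regions. Its median was 1.34 times the library background in replicate 1 and 1.33 times in replicate 2, and averaged 1.34 ± 0.00815 (SD, n = 2 libraries). At 16.3% and 18.6% of gained peaks it was not raised above the library level at all. Retained peaks had medians of 1.40 and 1.39 and stood at the library level in 17.5% and 19.2%. Mixed pairs had lower medians of 1.16 and 1.11, with 31.0% and 38.8% at the library level. The background of a gained region was much alike in the 2 libraries, with a Spearman's rho of 0.83 across regions.

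Chromosome 8 held many of the gained regions with a high local background, and nearly all of those with the highest. It was at least 2 times the library background, as a mean of both libraries, at 55 gained regions, 25 of them on chromosome 8, which held 50 gained regions in all. It was at least 3 times that level at 12 regions, 11 of them on chromosome 8. The median over the gained regions of chromosome 8 was 1.93 in replicate 1 and 2.03 in replicate 2, against 1.33 and 1.28 over the 429 on other chromosomes.

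The control lists showed a raised background on the same chromosome. Over all control peaks the median background was highest on chromosome 8, at 2.16 times the library background, followed by chromosome 9 at 2.04, with the others between 1.07 and 1.75. In retained regions of chromosome 8 it was 3.09 and 3.19 in the control libraries and 2.03 and 2.03 in the shCHD7-2 libraries. In retained regions of other chromosomes it was 2.31 and 2.32 in control and 1.37 and 1.36 in shCHD7-2. A high background on chromosome 8 was thus present in all 4 libraries and was not particular to the knockdown.

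The 5 gained regions with the highest background all lay on the long arm of chromosome 8. The first, at chr8:135984421-135985078, had 29 and 41 reads over local backgrounds of 6.20 and 6.68 reads, which were 4.43 and 4.12 times the library background. Its nearest control peaks, 65791 and 65819 bp away, had backgrounds of 3.41 and 3.20 times their libraries' level. At chr8:136240658-136241370, described above, the ratios were 4.36 and 3.81, with 1.62 and 2.56 at the nearest control peaks.

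The other 3 followed the same order between groups. The ratios were 4.21 and 3.55 at chr8:123580849-123581464 (24 and 21 reads), against 2.10 and 2.80 at the nearest control peaks. They were 3.67 and 4.04 at chr8:131916859-131917338 (20 and 25 reads), against 2.27 and 2.56. At chr8:139805363-139805857 (27 and 28 reads) they were 3.98 and 3.45, against 2.25 and 2.23 only 3835 and 3834 bp away. The regions were picked for a high shCHD7-2 background, and they are compared with control peaks at different positions. Over the retained regions of chromosome 8 the order of the medians was the opposite. These were 3.09 and 3.19 in control replicates 1 and 2 against 2.03 and 2.03 in shCHD7-2. Retained regions of the other chromosomes also had the higher medians in control, at 2.31 and 2.32 against 1.37 and 1.36. The order at retained regions was thus not particular to chromosome 8. These differences were not tested.

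Gained regions were drawn mainly from the weaker of the sites shared by both shCHD7-2 libraries. The 4367 regions with peaks in both lists were ranked by the lower of their 2 percentiles and split into 10 strata of equal size. In the weakest stratum 105 of 437 regions were gained (24.0%, 95% Wilson interval 20.3 to 28.2). In the second weakest the share was 16.9%, and in the third to the sixth it lay between 11.5% and 12.6%. It then went down through 8.92%, 7.11% and 3.43% to 1 of 437 regions in the strongest stratum (0.229%, interval 0.0404 to 1.28). That region was chr1:12870720-12871306. The intervals cover counting error over regions only.

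**Figure D3:**
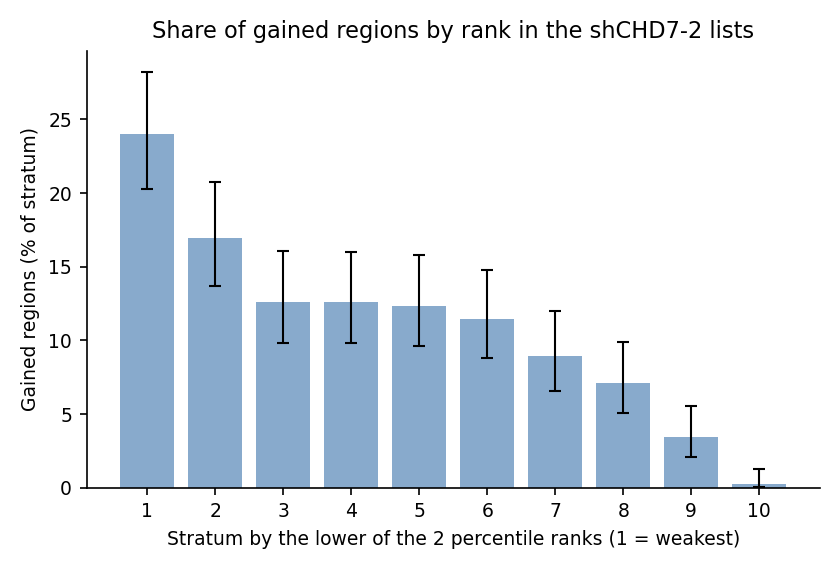
Share of regions with peaks in both shCHD7-2 lists that had no control peak, in percent with 95% Wilson intervals, for 10 strata from the weakest to the strongest by the lower of the 2 percentile ranks. The share goes from 24.0% in the weakest stratum to 0.229% in the strongest.

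The typical gained region nonetheless stood in the middle of the lists. The median percentile was 48.6 in replicate 1 and 56.2 in replicate 2, and 69.6 and 74.1 for retained peaks. The median −log10 q of gained peaks was 4.73 and 5.21, and the lowest was 1.69 and 1.53. In 142 gained regions it was at least 5 in both lists.

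The X chromosome held the highest share of gained regions. Of its 206 regions with peaks in both shCHD7-2 lists, 41 were gained (19.9%, 95% Wilson interval 15.0 to 25.9), against 11.0% over all chromosomes. Next came chromosome 16 with 13 of 81 (16.0%, 9.63 to 25.5) and chromosome 18 with 13 of 94 (13.8%, 8.26 to 22.2). The intervals of these 2 chromosomes include 11.0%, and that of X does not. With 23 chromosomes ranked after the values were seen, the rank of X is a description and was not tested.

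**Figure D4:**
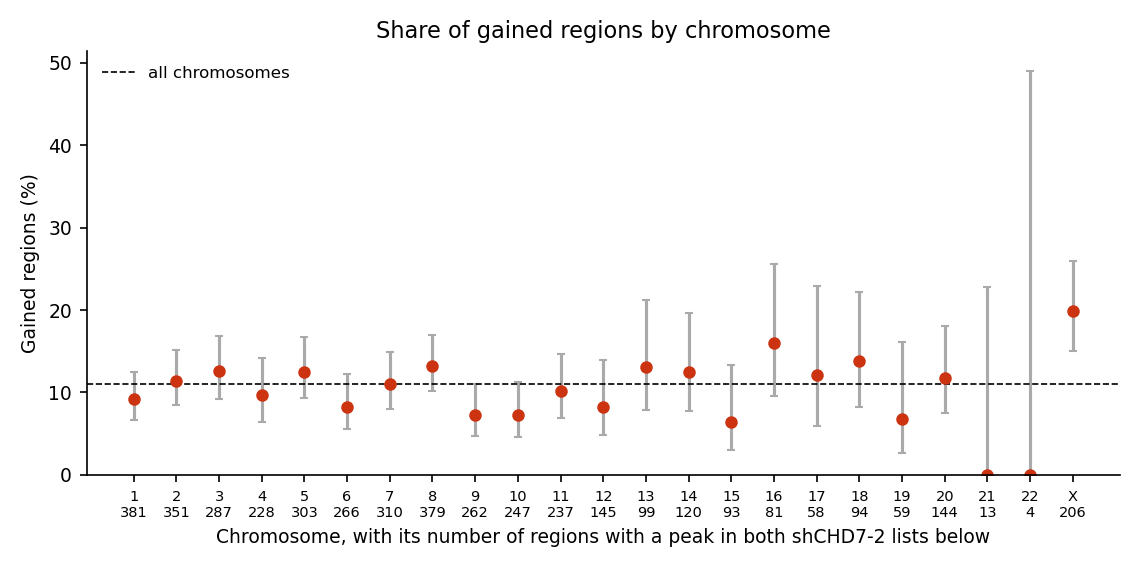
Share of regions with peaks in both shCHD7-2 lists that were gained, in percent with 95% Wilson intervals, for each chromosome, with the share over all chromosomes (11.0%) as a dashed line. Chromosome X stands highest at 19.9% and chromosomes 21 and 22 at 0 with few regions.

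The lowest shares came from chromosomes with few regions. No region was gained among 13 on chromosome 21, which allows a share of up to 23.1%, or among 4 on chromosome 22, which allows up to 75%. On chromosome 15 there were 6 of 93 (6.45%, 2.99 to 13.4). Chromosome 8 held the most gained regions of any chromosome named here, 50 of 379, at a share of 13.2% near that of the whole.

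The gained regions on X were ordinary in strength. Their pileups ran from 9 to 21 reads with a median of 13 in replicate 1, and from 9 to 24 reads with a median of 15 in replicate 2. On chromosome 8 the medians were 16.5 and 19 reads, and on all chromosomes other than 8 they were 14 and 15. The 41 regions made up 8.56% of the gained, against 3.95% of the retained, 7.49% of the mixed pairs, 7.46% of the regions in a single shCHD7-2 list and 2.54% of the lost, which are the 2947 regions called in both control lists alone. The X share was thus also above that of the retained among the mixed pairs and among the regions in a single shCHD7-2 list, but not among the lost. It stayed the highest under the alternatives run except at −log10 q of at least 5, where it was 14.6% against 20% on chromosome 14, and without control replicate 2, where chromosome 13 led at 25.3%.

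Gained regions were scattered singly along the chromosomes. The gap to the next gained region on the same chromosome had a median of 2202 kb over 458 gaps, with the middle 50% between 673 and 6117 kb. The shortest gap was 10.8 kb and the longest 69935 kb. Only 15 gaps were of 100 kb or less, and 28 regions (5.85%, 95% Wilson interval 4.07 to 8.32) had another gained region within 100 kb. Of the regions with 1 control peak, 11.0% had another such region within 100 kb. Split by kind, the share was 10.6% for the 283 with the control peak in replicate 1 and 2.86% for the 210 with it in replicate 2. For the 4 kinds of mixed pair it was between 4.51% and 6.39%, and for all mixed pairs together 14.2%. For the retained it was 36.6%. The share depends on how many regions a set holds. The 493 regions with 1 control peak are closest in number to the 479 gained, and the mixed pairs have 177 to 399 regions of each kind. With the lists shortened to equal length the share for gained regions was 12.8%, over 800 regions.

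The 28 regions formed 11 pairs and 2 runs of 3. The run on chromosome 3, from 40841750 to 41013751, held pileups of 13 and 18 reads, of 10 and 22 reads and of 19 and 17 reads, and no region with a control peak lay within its 172002 bp. The run on chromosome 8, from 98446241 to 98608709, held 22 and 24 reads, 25 and 20 reads and 10 and 14 reads, and 2 regions with a control peak lay among them. Replicate 2 was the taller at 4 of these 6 regions.

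The closest pair, chr8:49022333-49022761 and chr8:49033539-49034225, was separated by 10777 bp, with 10 and 12 reads at the first and 15 and 16 at the second. The next, chr5:49598751-49599427 and chr5:49615909-49616253, was 16481 bp apart, with 20 and 12 reads and then 9 and 9. On chromosome 5 at 169652697 and 169694986 the gap was 41880 bp (18 and 16 reads, then 16 and 23), and on chromosome 2 at 220804112 and 220852538 it was 48028 bp (14 and 13, then 15 and 10). At chr9:120466413-120466969 and chr9:120535248-120535656, 68278 bp apart, all 4 peaks had 20 to 23 reads.

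Most gained regions were well apart from any control peak. The distance to the nearest region with a control peak had a median of 78.1 kb, the middle 50% lay between 24.1 and 186 kb, and the farthest was 2344 kb away. It was within 1 kb for 14 regions (2.92%), within 10 kb for 12.3% and within 100 kb for 269 (56.2%), and 29 had none within 500 kb. The median to another region with a control peak was 43.7 kb for retained regions, 43.3 kb for mixed pairs, 54.0 kb for regions with 1 control peak and 74.5 kb for regions in a single shCHD7-2 list. The gained regions thus stood about as far from control peaks as those called once. The distance grew to 146 kb for the 258 regions at −log10 q of at least 5 and to 157 kb with lists of equal length, where fewer control peaks were left to be near.

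The most isolated gained regions had the library level as local background in both lists. At chr11:50133441-50133800, with 11 and 14 reads, the nearest region of any kind was 2137270 bp away. At chrX:89126752-89127165, with 15 and 11 reads, it was 967300 bp away. At chr13:38230505-38231105, with 12 and 20 reads, it was 596245 bp away. The replicate with more reads was not the same at all 3.

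A few gained regions adjoined a control peak without sharing a base with it. At chr2:60782147-60782839, with 18 and 18 reads, a peak of 15 reads in control replicate 2 ended 2 bp away. At chr1:47779172-47779503, one of the 3 regions weak in both lists, peaks of 27 and 29 reads in control replicates 1 and 2 lay 72 and 51 bp away and were taller than the gained peaks of 11 and 11 reads. At chr8:54229470-54230135, with 17 and 23 reads, a peak of 7 reads in control replicate 1 lay 108 bp away. In such cases the merging distance decided the call. With peaks merged across up to 500 bp, 467 of the 479 were still gained.

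Lost regions were sparse around gained ones. Within 500 kb on either side, a gained region had on average 0.470 lost regions, against 1.11 around a retained region, 1.06 around a mixed pair, 0.639 around a region with 1 control peak, 0.556 around a region in a single shCHD7-2 list and 2.20 around another lost region. The ratio of gained to retained was 0.423. It was below 1 on 21 of 21 chromosomes with gained regions, and so was the ratio of gained to mixed pairs. Some of these chromosomes held few gained regions. On chromosome 19, with 4, the means were 1.75 around gained and 1.84 around retained regions. Regions with 1 control peak or in a single shCHD7-2 list, whose means were nearer to the gained, were not compared by chromosome. No lost region lay within 500 kb of 329 gained regions, and 31.3% had at least 1, against 58.4% of retained regions and 52.7% of mixed pairs.

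**Figure D5:**
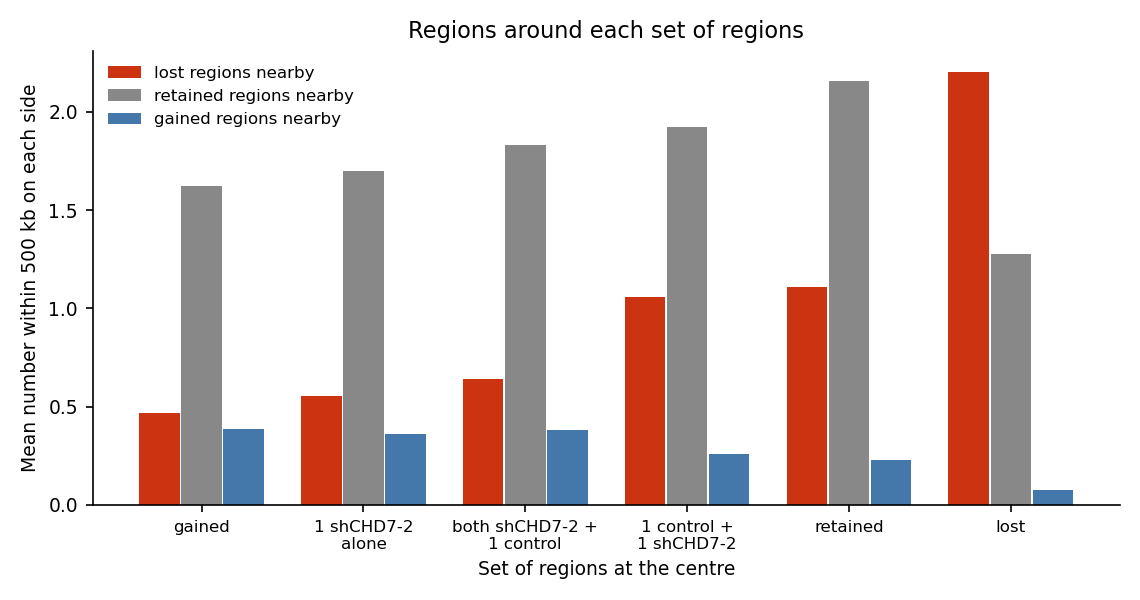
Mean number of lost, retained and gained regions within 500 kb on each side of a region, itself not counted, as bars for each set of regions at the centre. Around gained regions the mean number of lost regions is 0.470, against 1.11 around retained and 2.20 around lost regions, while the mean number of other gained regions is 0.384 against 0.229 and 0.0763.

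Other gained regions were more numerous around gained than around retained or lost regions, and about as numerous around regions with 1 control peak or in a single shCHD7-2 list. A gained region had on average 0.384 other gained regions within 500 kb, a region with 1 control peak 0.381, a region in a single shCHD7-2 list 0.361, a mixed pair 0.257, a retained region 0.229 and a lost region 0.0763. Of the gained, 149 (31.1%) had another gained region in that window, and of the retained 18.7% had one. Regions in a single shCHD7-2 list averaged 2.67 around gained, 1.78 around retained and 0.671 around lost regions. Retained regions themselves were somewhat fewer around gained regions, at 1.62, than around other retained regions, at 2.16. The number of single-list shCHD7-2 regions around gained regions was close to that around their own kind, at 2.54, and around regions with 1 control peak, at 2.57.

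Fewer lost neighbours than around retained regions were seen at both the stronger and the weaker gained regions. The mean number of lost regions within 500 kb was 0.358 for the 240 gained regions in the upper part by rank. It was 0.582 for the 239 in the lower part, against 1.11 around retained regions. The lower part was near the 0.556 around regions in a single shCHD7-2 list and the 0.639 around regions with 1 control peak. The cause was not tested. On X the mean was 0.561 lost regions around gained against 0.739 around retained regions, and on chromosome 8 it was 0.78 against 0.986, both nearer to 1 in ratio than over all chromosomes. With a window of 100 kb the means were 0.0919 and 0.255, and with 1000 kb they were 1.06 and 2.06. Without control replicate 1 the ratio was 0.663. Gene density and base composition along the chromosomes were not analysed here.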

How the data were processed

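ATAC-seq libraries of RKO cells, 2 control and 2 shCHD7-2, were deposited as 1 peak list each on hg19, grouped and numbered by their titles. The submitters' processing notes name Bowtie2 2.2.5, SAMtools 1.9, MACS2 2.1.2 and deepTools 3.3.0 with no role or setting. The shift of reads for the Tn5 cut, read extension and duplicate removal are not given in the sources used here, and each would change which sites were called. The authors called peaks per library. The deposited score, the fold enrichment (a ratio of pileup to background) and the −log10 p and q values of each summit are the authors' values. The lowest −log10 q, between 1.30 and 1.32 in the 4 lists, places the limit near q of 0.05.

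Summit pileup k and local background b were solved for each peak from the fold enrichment (k + 1) / (b + 1) and a p value equal to the upper Poisson tail beyond k at mean b, with b at or above 0.5. A solution within 0.001 in −log10 p existed for 100% of peaks. The commonest b served as the library background. All backgrounds above it were multiples of 0.02 reads in all 4 lists, so the lists shared that step. Positions were counted from 1. The solving and the set calls were tested on simulated data. The work ran in Python 3.11.15 with SciPy 1.17.1, NumPy 2.4.6, matplotlib 3.10.9 and pandas 2.3.3.

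Regions were named by rule: the 10 with the highest rank in their weaker list, the 5 widest, the 5 closest pairs and runs of 3 or more, those just inside and just outside the q limit, the 5 with the highest local background, the 3 farthest from any region and the 3 nearest to a control peak. The members, sets and lists were chosen with earlier results of these data known. With members chosen by peak calls and 2 libraries per group, no test was run. Wilson intervals cover counting error only. Alternatives were a stricter q, overlap of at least 50% of the shorter peak, merging across 500 bp, lists of equal length, rescaled pileups, other windows and each library left out. Genes, promoters and DNA sequence at the regions were not analysed here, since the gene tables at hand are of another build.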

Additional observations from a re-analysis of the deposited data

How the results depend on the processing

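With −log10 q of at least 5 there were 258 gained regions, the gained to retained ratio was 0.699 for width and 0.890 for fold enrichment, local background was 1.52 times the library's, summits lay 30 bp apart and control peaks 146 kb away. With lists of equal length these were 800 regions, 0.719, 0.864 and 1.40, a distance of 157 kb and a share of 12.8% with another gained region within 100 kb. That share was 0 within 10 kb and 48.0% within 1000 kb. With pileups scaled to the lowest background the ratios were 0.734 and 0.894 and the background 1.39. Enrichment was 0.868 both with overlap of at least 50% of the shorter peak and with merging across 500 bp, where the width ratio was 0.729. Leaving out each library in turn gave 689 to 2590 regions, width ratios of 0.628 to 0.760, enrichment ratios of 0.809 to 0.879, backgrounds of 1.21 to 1.36, shares within 100 kb of 9.29% to 30.3% and control distances of 73.6 to 108 kb. Without a control library the shares were 13.3% (replicate 1) and 9.29% (replicate 2), and without an shCHD7-2 library 30.3% and 26.1%, over more regions.

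Of 75 alternative values, 32 were counted as near the reported value and 43 as moved. The number of gained regions and the ratio of lost neighbours have no SD or interval. Their alternatives were thus not judged against a spread, and counts of 345 and 689 were among those taken as near 479. Width and enrichment ratios stayed below 1 in all of those run. Background stayed above 1, but no peak's local background lay below its library background. A median below 1 could therefore not occur, and this says nothing about the gained regions. The cause of each shift was not tested, except that fewer libraries ask for fewer calls. The windows of 100 and 1000 kb for lost neighbours were added after the data were seen. Alternatives on promoters were not run, for want of an hg19 annotation at hand. No paired analysis was possible because the results come from no test. Depth limits what the absence of a control peak can show.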

Other observations

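Gained regions were uncommon at the start of chromosomes. Of the 479, 8 (1.67%) began within the first 5 Mb of a chromosome. So did 102 (3.00%) of the retained, 3.66% of the mixed pairs and 133 (4.51%) of the lost regions. Among regions with 1 control peak 14 (2.84%) did, and 2.98% of those in a single shCHD7-2 list. The counts are small. This was noticed after the values were seen and was not tested.

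Between 13 and 16 peaks per list lay on scaffolds outside the assembled chromosomes. They formed 24 regions, and 0 of them had a peak in both shCHD7-2 lists and neither control list.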
